A study of Mus musculus with 10 samples.

Results

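Genes of type 2 immunity, 10 in all, were followed in the back skin of young mice that carried 1 of 2 staphylococci. They are the receptor genes Il4ra, Il13ra1 and Il13ra2, the cytokine genes Il13 and Tslp, the chemokine genes Ccl8, Ccl11 and Ccl24, and the effector genes Retnla and Arg1. The genes were taken as a list of symbols, all 10 of which matched 1 row each of the 46078 genes counted. Specific-pathogen-free C57BL/6 mice received Staphylococcus aureus SF8300 (SA group, 5 libraries) or Staphylococcus epidermidis Tü3298 (SE group, 5 libraries), pipetted onto the skin as 100 µl of suspension every other day from day 3 to day 19 of life. At day 21 the trunk skin was lightly freed of fat, and RNA came from an 8 mm punch of the back. Skin without either bacterium was not analysed here, and every difference sets 1 bacterium against the other. Whether the 5 libraries of a group stem from 5 mice is not stated in the labels, and p-values therefore cover the spread between these libraries.

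Type 2 immunity is the arm that acts against parasites and drives allergic inflammation, and in skin it is known best from atopic dermatitis, in which S. aureus often colonises. Keratinocytes release the alarmin thymic stromal lymphopoietin (Tslp), innate lymphoid cells and T helper 2 cells make interleukin-13, and the interleukin-4 receptor alpha chain (Il4ra) pairs with Il13ra1 to signal through the transcription factor STAT6. Il13ra2 binds interleukin-13 with high affinity and is mostly regarded as a decoy. Ccl11 and Ccl24 attract eosinophils, and Ccl8 attracts other type 2 cells. Retnla and Arg1 are classic products of macrophages exposed to interleukin-4.

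Reads assigned to genes lay between 21140654 and 25417851 per library, and 9 of the 10 genes passed the filter on low counts and were tested. Il13 did not pass and is given in reads. Levels are CPM, reads scaled to the effective size of each library, and log2 fold changes are SA minus SE with their standard errors. SE libraries 3, 4 and 5 scored 37.9 to 54.3 on principal component 1 and the other 7 libraries -32.5 to -9.34. For the 9 tested genes and the medians of the pathway lists, values that moved by over 1.5 times without these 3 are given that way too. Differences of single list and marker genes are given over all 10 libraries only. Ddx3y, a Y-linked gene, exceeded Xist in SA libraries 1 and 3 and SE library 3, and in no other library, so each group held RNA of more than 1 mouse. Among markers of skin, Krt14 averaged 1515 ± 174 CPM in SA and 1984 ± 447 in SE, and Col1a1 15760 ± 2718 and 13596 ± 2599 (SD, n = 5 each, as after every mean here). Krt14 does not stand for all keratinocyte markers, of which 3 of 7 were higher in SA and 4 lower, with a median log2 fold change of -0.02.

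None of the 9 tested genes passed an adjusted p of 0.05 in the edgeR quasi-likelihood test, where 0.0769% of all 16909 tested genes did (13 genes) and 0.0591% were higher in SA (10 genes). That count was 8 without SA library 1 or 3, 7 without SA library 2 or 5, 225 without SE library 1 and 152 without SE library 2. At an unadjusted p under 0.05 stood 2 of the 9, Il13ra1 and Il13ra2, against 11.1% of all tested genes. DESeq2 called 1 of the 10, Il13ra2, against 1.7% of its 20073 genes. Without SE libraries 3, 4 and 5 edgeR again called none, against 0.233% of all genes. The median log2 fold change was 0.12 over the 9 genes and -0.01 over all tested genes, with 6 of 9 positive against 48.3% of all.

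**Figure D1:**
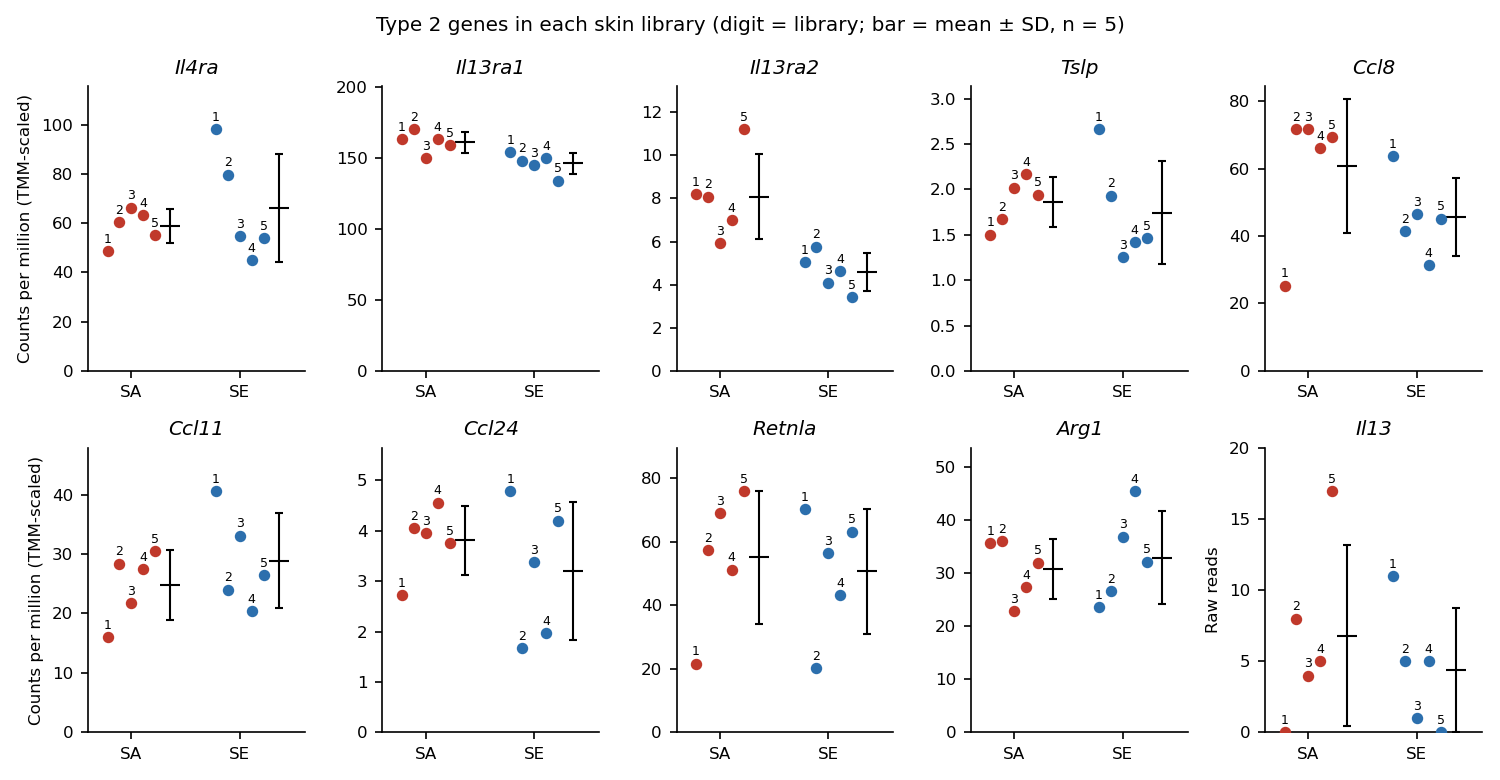
TMM-scaled CPM of the 9 tested genes and raw reads of Il13 in each SA library (red) and SE library (blue), with the library number over each point and the mean ± SD of 5 libraries in black, each panel from 0. Il13ra2 is the only panel without overlap between groups, with SA from 5.92 to 11.2 and SE from 3.43 to 5.76. SA library 1 lies far below the other 4 SA libraries for Ccl8.

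The sequence before the start of a gene holds the sites through which its transcription is set, and it is shown for 3 genes: Il13ra2, whose groups did not overlap, and Ccl8 and Retnla, the 2 most abundant per length, which were low in the same libraries. RefSeq promoters (GRCm38.p6) were matched by symbol for 6 of the 10 genes, namely Il4ra, Il13ra1, Il13ra2, Ccl8, Retnla and Il13. Each runs 5′ to 3′ on the strand of its gene from 250 bases before the RefSeq start. Capitals mark a STAT6-type motif (TTC and GAA with 4 bases between them), an AP-1 motif TGANTCA or a TATA box TATAAA on either strand.
Il13ra2, chrX:147429193-147429442, minus strand: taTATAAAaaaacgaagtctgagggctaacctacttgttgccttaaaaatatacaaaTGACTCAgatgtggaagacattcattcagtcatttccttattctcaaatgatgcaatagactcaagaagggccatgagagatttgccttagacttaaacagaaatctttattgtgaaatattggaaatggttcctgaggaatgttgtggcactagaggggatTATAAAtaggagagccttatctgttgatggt
Ccl8, chr11:82114935-82115184, plus strand: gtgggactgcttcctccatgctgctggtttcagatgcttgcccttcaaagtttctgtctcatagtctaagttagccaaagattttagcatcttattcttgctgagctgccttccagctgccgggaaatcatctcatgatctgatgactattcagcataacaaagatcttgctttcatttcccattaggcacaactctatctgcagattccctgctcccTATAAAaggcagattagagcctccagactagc
Retnla, chr16:48842359-48842550, plus strand: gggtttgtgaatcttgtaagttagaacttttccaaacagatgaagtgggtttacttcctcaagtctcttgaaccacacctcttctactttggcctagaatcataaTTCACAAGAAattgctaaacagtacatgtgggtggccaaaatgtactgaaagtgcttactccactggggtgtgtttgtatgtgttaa

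Retnla is printed up to the GENCODE gene start, which lies 58 bases before the RefSeq start. Its window held the STAT6-type motif at -145 to -136, and 5.85% of all 32851 RefSeq promoter windows of 250 bases held one. The Il13ra2 window held the AP-1 motif at -193 to -187, found in 6.75% of all windows. A TATA box lay between -32 and -24 in the windows of Il13ra2, Ccl8, Retnla (in the part not printed) and Il13, with another at -248 in Il13ra2, and 12.4% of all windows held one at any place. In Il13 it was present on both strands, with matches that overlap. The STAT motif with a spacer of 3 bases, TTCNNNGAA, was in none of the 6 windows and in 7.02% of all. The windows of Il4ra and Il13ra1 held none of the 4 motifs. Of the Il4ra window, 151 bases lie inside the GENCODE gene and only 99 before it.

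Il13ra2 was higher in SA skin in every library. This gene of the high-affinity interleukin-13 receptor (ENSMUSG00000031289, chromosome X, 147383476 to 147429192 in GRCm38) stood at 8.2, 8.09, 5.92, 7 and 11.2 CPM in SA libraries 1 to 5, from 175, 184, 135, 155 and 278 reads. In SE libraries 1 to 5 it stood at 5.04, 5.76, 4.1, 4.62 and 3.43 CPM, from 125, 131, 92, 101 and 75 reads. The lowest SA library lay just above the highest SE library, a separation that 2.05% of all tested genes showed. The means were 8.09 ± 1.99 CPM in SA and 4.59 ± 0.889 in SE, 1.76-fold apart (log2 fold change 0.82 ± 0.19).

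The difference missed the threshold over all genes in edgeR (adjusted p = 0.149, unadjusted 0.00105) and passed it in DESeq2 (adjusted p = 0.00551). In the authors' deposited table, which came from DESeq2, Il13ra2 had a log2 fold change of 0.62 ± 0.149 and an adjusted p of 0.00683. The DESeq2 fit here gave 0.82 for Il13ra2. Deposited fold changes were smaller for other genes too, such as Ccl8 (0.27 against 0.42 in the fit here), and the reason was not tested. Without SE libraries 3, 4 and 5, which held the 3 lowest values of Il13ra2, its log2 fold change was 0.59 ± 0.232 (edgeR adjusted p = 0.455). With a term for Ddx3y above Xist, it was 0.87 ± 0.19 (edgeR adjusted p = 0.185).

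Il13ra1, the signalling receptor chain that pairs with Il4ra, was the steadiest of the 10 genes. It ranged from 150 to 170 CPM in SA and from 134 to 154 in SE, and the groups overlapped. The means were 161 ± 7.41 and 146 ± 7.57 CPM, and the log2 fold change was 0.14 ± 0.062 (edgeR adjusted p = 0.443, unadjusted 0.0468). Like Il13ra2 it lies on the X chromosome, at 36112110 to 36171259. Per kilobase of exon, the level of Il13ra2 was 8.16% ± 1.97 of that of Il13ra1 in SA and 5.09% ± 0.822 in SE. The ratio lay between 6.42% and 11.5% in SA libraries and between 4.17% and 6.33% in SE libraries.

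Il4ra, the chain shared by the interleukin-4 and interleukin-13 receptors, split the SE group. SE libraries 1 and 2 were the highest of all, at 98 and 79.6 CPM, while SE libraries 3, 4 and 5 stood at 54.7, 45 and 54. SA libraries 1 to 5 stood at 48.7, 60.5, 66.2, 63.2 and 55 CPM, between those extremes. Means were 58.7 ± 6.94 in SA and 66.2 ± 21.9 in SE (log2 fold change -0.17 ± 0.189, edgeR adjusted p = 0.738). The difference was -0.59 ± 0.125 without SE libraries 3, 4 and 5 (edgeR adjusted p = 0.117) and 0.01 ± 0.151 without SE library 1, so its size and sign rested on which SE libraries were kept. Of the exonic bases of Il4ra, 9.51% overlap Gm44876 on the opposite strand. If the counting ignored strand, reads there could not be assigned to either gene by strand. Whether such reads were counted for Il4ra or set aside as ambiguous is not stated.

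**Figure D2:**
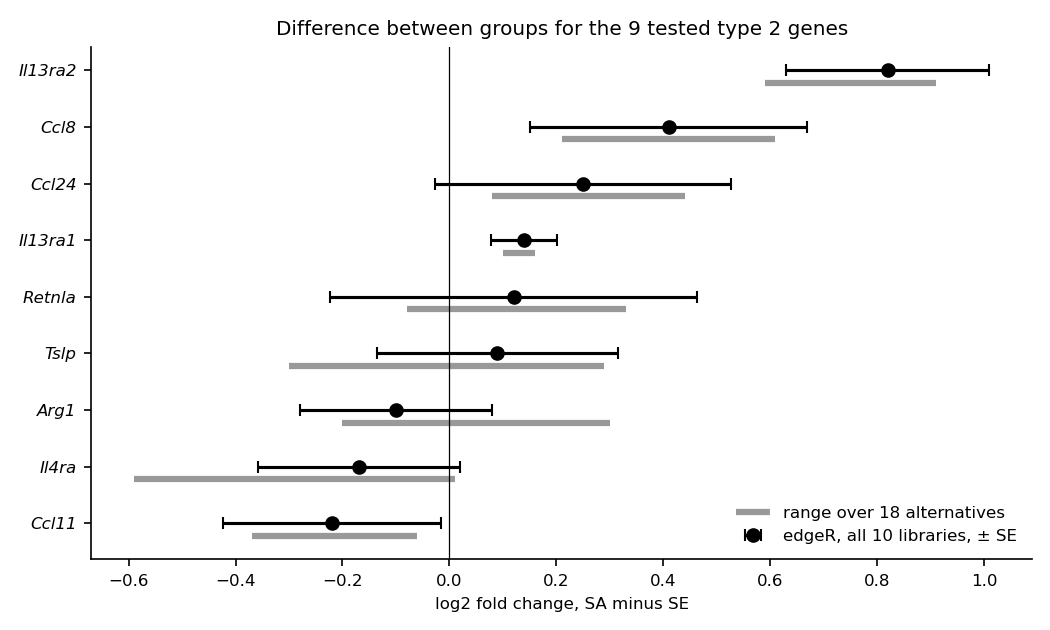
Log2 fold change (SA minus SE) of the 9 tested genes, ± its standard error (black), with the range over 18 alternative fits below each (grey). Il13ra2 lay between 0.59 and 0.91 and Il13ra1 between 0.1 and 0.16 over the alternatives, while the ranges of Retnla, Tslp, Arg1 and Il4ra crossed 0.

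Il13, the type 2 cytokine gene, was close to the detection limit. SA libraries 1 to 5 held 0, 8, 4, 5 and 17 reads and SE libraries 1 to 5 held 11, 5, 1, 5 and 0, or 34 and 22 in all. The empty libraries, SA 1 and SE 5, allow up to 0.141 and 0.137 CPM (3 reads, counting error only). SA library 5 and SE library 1 held the most reads, and the groups overlapped. Fitted without a filter on low counts, Il13 had a log2 fold change of 0.61 (edgeR adjusted p = 0.783), so no difference was detectable at this depth. Il13 lies on chromosome 11, 53631324 to 53634702.

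Tslp, the epithelial alarmin gene, was low in both groups. It stood at 1.5, 1.67, 2.02, 2.17 and 1.94 CPM in SA libraries 1 to 5 and at 2.66, 1.93, 1.25, 1.42 and 1.46 in SE libraries 1 to 5. SE library 1 was the highest of all and SE libraries 3, 4 and 5 were the lowest, so that the SE group spanned the whole SA range. The log2 fold change was 0.09 ± 0.225 (edgeR adjusted p = 0.894), and -0.30 ± 0.247 without SE libraries 3, 4 and 5 (adjusted p = 0.76). With single libraries left out it ranged from -0.01 without SE library 3 to 0.29 without SE library 1.

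The chemokine genes did not differ past the threshold. Ccl8 lies on chromosome 11 at 82115185 to 82116799, in the same chemokine cluster as Ccl11 at 82057823 to 82062955. It stood at 71.6, 71.6, 66 and 69.3 CPM in SA libraries 2 to 5 and at 25.3 in SA library 1, and at 63.7, 41.5, 46.5, 31.4 and 45.1 in SE libraries 1 to 5. Thus 4 SA libraries lay above every SE library and the remaining one below every SE library. The log2 fold change was 0.41 ± 0.259 (edgeR adjusted p = 0.569), and without SA library 1 it was 0.61 ± 0.159 (adjusted p = 0.282). Without SE libraries 3, 4 and 5 it was 0.21 ± 0.333 (adjusted p = 0.893).

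Ccl11, which encodes eotaxin-1, leaned the other way. It stood at 16, 28.4, 21.7, 27.5 and 30.5 CPM in SA libraries 1 to 5 and at 40.6, 24, 33.1, 20.4 and 26.4 in SE libraries 1 to 5, a log2 fold change of -0.22 ± 0.204 (edgeR adjusted p = 0.701). SE library 1 alone held the top value, and without it the log2 fold change was -0.06 ± 0.188. Without SA library 1 it was -0.09 ± 0.187, and without SE libraries 3, 4 and 5 it was -0.37 ± 0.244. Ccl24, the gene of eotaxin-2 (chromosome 5, 135569937 to 135573049), ranged from 2.72 to 4.56 CPM in SA and from 1.67 to 4.79 in SE. SE libraries 2 and 4 were the lowest, at 1.67 and 1.97 CPM, and the SE group again held both extremes. Its log2 fold change was 0.25 ± 0.277 (edgeR adjusted p = 0.752), with 0.08 ± 0.244 without SE library 2, 0.12 ± 0.27 without SE library 4 and 0.44 ± 0.268 without SE library 1.

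Retnla, which encodes the secreted protein RELM-alpha, varied more within each group than between them. It stood at 21.6, 57.3, 69, 51.2 and 75.9 CPM in SA libraries 1 to 5 and at 70.1, 20.3, 56.4, 43.1 and 63.1 in SE libraries 1 to 5. One library in each group, SA 1 and SE 2, held under 22 CPM, and no other library fell under 43.1. The log2 fold change of 0.12 ± 0.343 did not pass the threshold (edgeR adjusted p = 0.905). With single libraries left out it ranged from -0.08 without SE library 2 to 0.33 without SA library 1, and without SE libraries 3, 4 and 5 it was 0.28 ± 0.472.

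Arg1, the arginase that competes with nitric oxide synthase for arginine, stood at 35.7, 36, 22.8, 27.4 and 32 CPM in SA libraries 1 to 5 and at 23.6, 26.6, 36.9, 45.5 and 32.2 in SE libraries 1 to 5. SE libraries 3 and 4 were the highest and SA library 3 and SE library 1 the lowest. The log2 fold change was -0.10 ± 0.179 (edgeR adjusted p = 0.852), and 0.30 ± 0.166 without SE libraries 3, 4 and 5 (adjusted p = 0.634). With single libraries left out it ranged from -0.20 without SE library 1 to 0.05 without SE library 4. Over the 10 libraries Arg1 and Retnla had a Pearson r of log2 CPM of -0.18, a description over libraries that share their depth and tissue. With summed macrophage markers r was -0.63 for Arg1 and 0.77 for Retnla, and with summed keratinocyte markers 0.68 and -0.68. Which cells held the Arg1 RNA was not tested.

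Ccl8, Ccl24 and Retnla had the same 3 lowest libraries, SA 1, SE 2 and SE 4. The remaining 7 of the 10 genes had other sets. Those same 3 libraries were the lowest for 6 of 10 summed marker lists, namely macrophages, mast cells, fibroblasts, adipocytes, eosinophils and basophils. Summed macrophage markers stood at 536, 580 and 517 CPM there and at 731 to 1235 in the other 7 libraries, and summed fibroblast markers at 26175, 32381 and 26702 against 33571 or more. Summed keratinocyte markers went the other way in SA 1 and SE 4, which held the highest sums, 16568 and 16456 CPM. Eosinophil and basophil sums were low everywhere, at 2.68 to 7.6 and 1.47 to 4.11 CPM over the 10 libraries. For basophils the third lowest sum, 2.25 CPM, lay barely under the fourth, 2.3. The part of tissue make-up in these values was not tested, and in whole skin fewer cells of a type cannot be told apart from less RNA per cell.

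**Figure D3:**
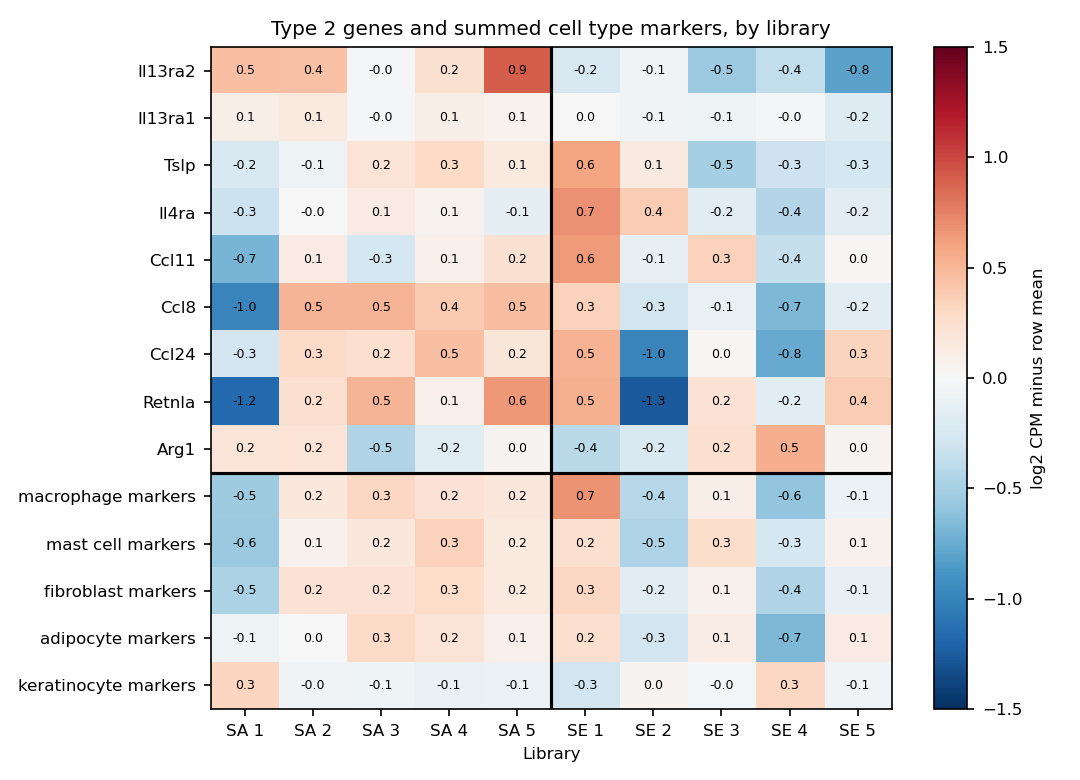
Log2 CPM minus the row mean for the 9 tested genes (above the line) and for 5 summed marker lists (below it) in each library, red for high and blue for low. Ccl8, Ccl24 and Retnla are low in SA 1, SE 2 and SE 4 together with the macrophage, mast cell, fibroblast and adipocyte sums, while Il13ra2 follows the groups.

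No gene of the marker lists passed the threshold between groups, and their part in the differences above was not tested. Macrophage markers were positive in 8 of 12 tested genes with a median log2 fold change of 0.13 and no call, and their sums ranged from 536 to 964 CPM in SA and from 517 to 1235 in SE. Mertk, a receptor for dying cells, had -0.43 ± 0.171, and Adgre1, the gene of F4/80, 0.35 ± 0.274 (edgeR adjusted p = 0.399 and 0.637). Fibroblast markers were positive in 6 of 8 with a median of 0.11, and summed to 26175 to 44296 CPM in SA and 26702 to 45060 in SE. Monocyte and dendritic markers were positive in 9 of 9 with a median of 0.39 and no call, led by the lectin gene Cd209d at 0.79 ± 0.28 (edgeR adjusted p = 0.348).

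Most eosinophil and basophil markers fell under the filter on low counts, and mast cell markers were well detected. Of 7 eosinophil markers 3 were tested, and Epx, the eosinophil peroxidase, had 1 read in SA and 0 in SE. Ccr3, the receptor of Ccl11 and Ccl24, averaged 2.17 ± 0.921 CPM in SA and 1.38 ± 0.571 in SE (log2 fold change 0.65 ± 0.356, edgeR adjusted p = 0.513). Il5ra and Siglecf, also tested, had 0.43 ± 0.301 and 0.22 ± 0.334 (edgeR adjusted p = 0.604 and 0.815). Under the filter, Prg2 had 51 reads in SA and 22 in SE. Ear6 and Ear1 went the other way, with 52 and 1 reads in SA and 72 and 10 in SE. Mast cell markers were present at 240 to 448 CPM in sum in SA and 256 to 424 in SE, with 4 of 8 positive. Of 4 basophil markers only Cd200r3 passed the filter, at 0.31 ± 0.201 (edgeR adjusted p = 0.579). Keratinocyte, adipocyte and endothelial markers were positive in 3 of 7, 6 of 8 and 3 of 5, with medians of -0.02, 0.22 and 0.02. Innate lymphoid and T helper 2 markers were divided, with 4 of 7 positive, 3 negative and a median of 0.13. The negative ones were Il1rl1, Il17rb and Klrg1, at -0.13 ± 0.355, -0.17 ± 0.265 and -0.09 ± 0.512. Among the positive ones, the costimulator gene Icos was at 3.98 ± 0.837 CPM in SA and 2.33 ± 0.315 in SE without overlap (log2 fold change 0.77 ± 0.174, edgeR adjusted p = 0.139). Of all tested genes, 2.05% showed such a separation. Ptgdr2, the prostaglandin D2 receptor of type 2 lymphocytes and eosinophils, was under the filter with 76 reads in SA and 24 in SE. It is named because its libraries did not overlap either, at 0.396 to 1.09 and 0.0916 to 0.274 CPM (edgeR adjusted p = 0.121 without the filter). The share of 2.05% covers tested genes only, so Ptgdr2 has no such share beside it.

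Per kilobase of exon, which makes levels of different genes comparable, the 9 tested genes differed widely. Ccl8 was the highest at 104 ± 34 CPM per kilobase (SD over 10 libraries), followed by Retnla at 88.1 ± 32.3, Il13ra1 at 41.4 ± 2.82 and Ccl11 at 24.8 ± 6.44. Arg1 at 14.3 ± 3.14 and Il4ra at 10.4 ± 2.64 came next, then Il13ra2 at 2.78 ± 1.03, Ccl24 at 2.71 ± 0.821 and Tslp at 1.35 ± 0.32. Among neighbours in this order, only Il4ra and Il13ra2 had ranges that did not overlap. Ccl8 exceeded Retnla in 7 of 10 libraries, and Il13ra2 exceeded Ccl24 in 5 of 10, so these neighbours did not differ beyond their spread. Il13ra1 exceeded Ccl11 in 10 of 10 libraries. The variation over libraries was lowest for Il13ra1, with an SD of 6.81% of the mean, and lay between 22% and 37% for the other 8 tested genes.

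**Figure D4:**
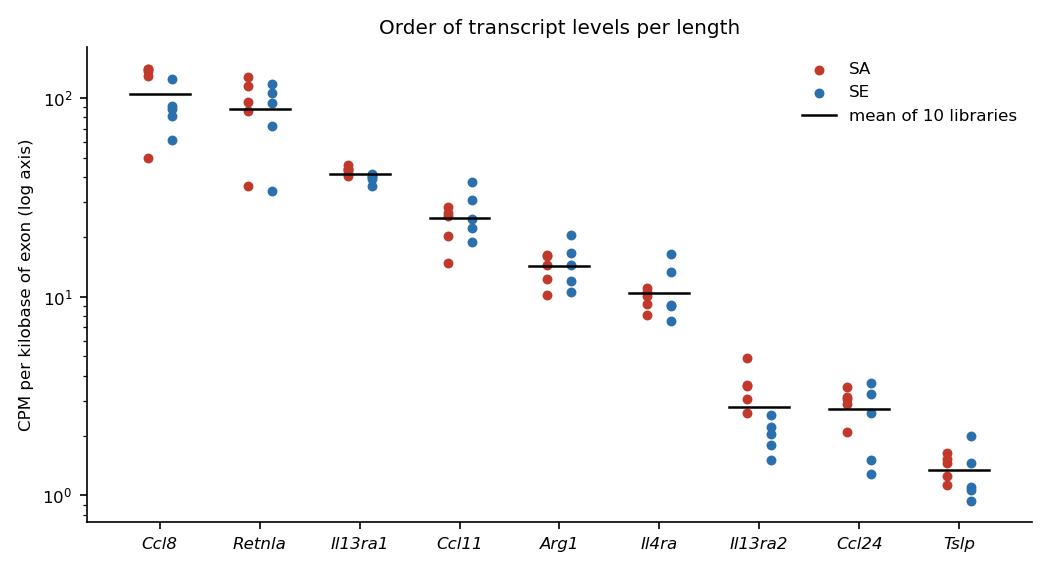
CPM per kilobase of exon on a log axis for the 9 tested genes in order of their mean (black line), with SA libraries in red and SE libraries in blue. Ccl8 and Retnla lead at 104 and 88.1, and Tslp is last at 1.35.

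Other genes of type 2 immunity did not pass the threshold either. Among the other cytokines and alarmins, 2 of 8 were tested, with a median of 0.13 that moved from 0.03 without SE library 3 to 0.21 without SE library 1. Il33, the alarmin of fibroblasts and epithelium, averaged 31 ± 2.92 CPM in SA and 24.4 ± 5.95 in SE (log2 fold change 0.34 ± 0.149, edgeR adjusted p = 0.434, unadjusted 0.0402). Il4 was at 1.62 ± 0.313 and 1.71 ± 0.401 CPM (-0.08 ± 0.218). Il5 had 3 and 2 reads in all SA and SE libraries, Il9 had 0 and 2, and Il31 and Il3 had none.

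Receptors and signalling genes downstream were divided, with 14 of 26 positive, none called and a median of 0.02 (0.01 to 0.07 with single libraries left out). Stat6, the factor that carries the signal to the nucleus, averaged 124 ± 4.57 CPM in SA against 125 ± 10 in SE. Jak1, a kinase of these receptors, averaged 273 ± 16.5 against 269 ± 25.9. The gene furthest from 0 by its test was Il17ra, a receptor subunit shared by interleukin-17 and interleukin-25. It was lower in each SA library, at 27.8 ± 1.01 against 34.1 ± 0.694 CPM (log2 fold change -0.29 ± 0.0577, edgeR adjusted p = 0.0921). Of all tested genes, 2.05% had groups that did not overlap. Il7r, a chain of the Tslp receptor that lymphocytes also use for interleukin-7, had 0.52 ± 0.187 (adjusted p = 0.351), and Crlf2, the specific Tslp receptor chain, 0.24 ± 0.165. Csf2rb2 had 0.26 ± 0.0729 (adjusted p = 0.217), and its reads are uncertain because Csf2rb is a near-identical copy.

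CC chemokines and their receptors were positive in 11 of 15 tested genes, with a median of 0.19 and no call. That median moved from 0.01 without SA library 2 to 0.41 without SE library 2, and was 0.09 without SE libraries 3, 4 and 5. The lowest p-values fell on receptors. Ccr4, the receptor for Ccl17 and Ccl22, had 0.45 ± 0.179, and Ccr1, found on myeloid cells, 0.77 ± 0.409 (edgeR adjusted p = 0.399 and 0.503). Ccl22 stood at 9.05 ± 2 and 9.27 ± 2.86 CPM. Ccl17 had 23 reads in SA and 40 in SE, and Ccl26 had none.

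Genes of alternative macrophage activation were positive in 10 of 14 tested, with a median of 0.10 that moved from 0.01 without SA library 5 to 0.26 without SE library 1. Cd209a, a lectin of dendritic cells and macrophages, had 0.77 ± 0.251, the transcription factor gene Pparg 0.27 ± 0.124 and the lectin gene Mgl2 0.33 ± 0.232 (edgeR adjusted p = 0.311, 0.444 and 0.599). Mrc1, the mannose receptor, was at 172 ± 39.6 CPM in SA and 158 ± 75.1 in SE, Chil3 had 59 and 47 reads, and Chil4 had none. In the list of arginine use and resistin family genes 8 of 9 were positive, with a median of 0.11 that moved from 0.04 without SA library 3 to 0.30 without SE library 2. Retn, the resistin gene of adipocytes and a relative of Retnla, had 0.88 ± 0.273 at 95.6 ± 7.18 CPM in SA and 52 ± 25.2 in SE (edgeR adjusted p = 0.286). Nos2, the nitric oxide synthase that shares its substrate with Arg1, had 0.32 ± 0.214, and Odc1, which makes polyamines from the product of arginase, 0.25 ± 0.215 (edgeR adjusted p = 0.594 and 0.671). Without SE libraries 3, 4 and 5 the medians of this list and of the cytokines and alarmins were -0.11 and -0.02.

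**Figure D5:**
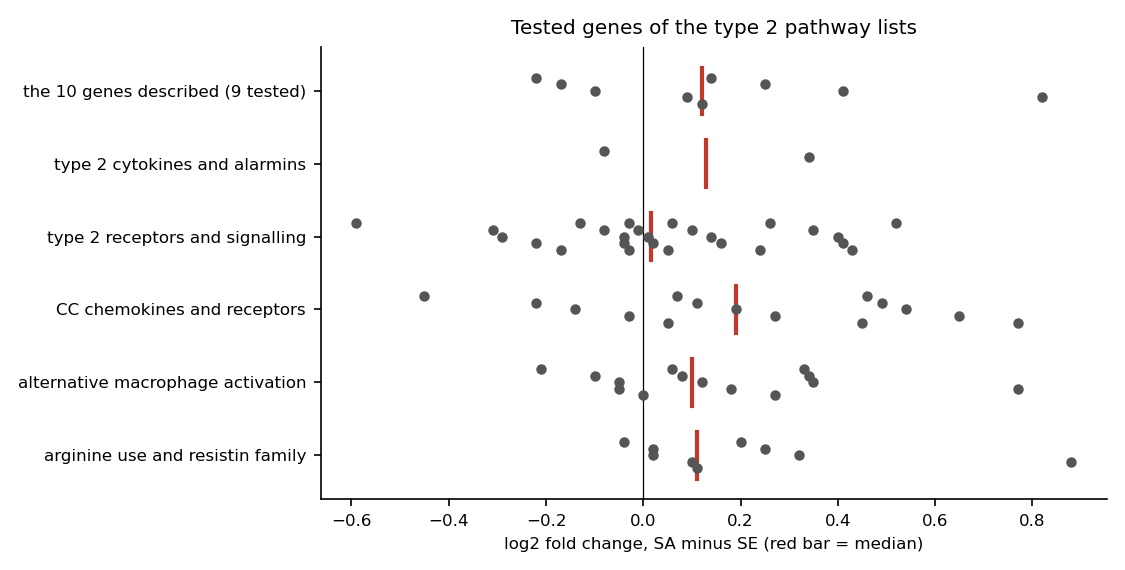
Log2 fold change (SA minus SE) of each tested gene in the 5 pathway lists and of the 9 tested genes described above, 1 point per gene, with the median of each row in red. All medians lie between 0.02 and 0.19, and Il13ra2 at 0.82 is the rightmost point of the top row.

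Each gene had its own set of genes with the most similar pattern, measured as Pearson's r of log2 CPM over the 10 libraries. With 13854 candidates this is a description, since the highest of so many values is always high. Both groups are pooled, so a difference between SA and SE enters r. Hlx and Cd3g, named next, had log2 fold changes of 0.40 ± 0.128 and 0.31 ± 0.0889 (edgeR adjusted p = 0.302 and 0.223). Those closest to Il13ra2 were Hlx, a homeobox factor of lymphocytes (r = 0.94, 0.93 over the 7 libraries without SE 3, 4 and 5), Lyrm1 (0.94, 0.89) and Cd3g, a chain of the T cell receptor complex (0.94, 0.93). For Ccl8 they were Cpq, Smchd1 and Gfra2 at 0.96, 0.95 and 0.95, and for Ccl11 they were Cd200r4, the calcium pump gene Atp2b1 and the Notch effector gene Rbpj at 0.98, 0.97 and 0.97. For Retnla they were Pla2g7, a secreted phospholipase of macrophages, Cog6 and Man2b1 at 0.96, 0.95 and 0.95, and for Ccl24 they were Gabra3, Hepacam2 and Amy1 at 0.97, 0.95 and 0.94. Arg1 was closest to Mcc, to Ppl, which encodes the cornified envelope protein periplakin, and to Adgrf4, at 0.97, 0.96 and 0.96. Il4ra was closest to Rab3il1, Nqo2 and Ly6a at 0.96, 0.95 and 0.94, Il13ra1 to Pnpla5 and Fut8, both at 0.94, and Tslp to Parp11, Lactb2 and Rab33b at 0.96, 0.95 and 0.95.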

How the data were processed

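Whole skin RNA was sequenced in 10 libraries. The deposited counts are whole reads per Ensembl gene. Per the submitters' processing notes, the authors used HTSeq 0.6.1p1, STAR 2.4.2a and SAMtools with GRCm38 (mm10). Strand setting, counting mode and annotation release: not given in the sources used here. The 5 rows that name no gene held 30.5% to 34.6% of listed reads per library and were left out.

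The authors' deposited table comes from DESeq2, per the submitters' processing notes. Of it, log2 fold changes, p-values and adjusted p-values were copied as deposited, its Wald statistic (a score, per the file headers) was not printed, and none entered a test. Its header does not name the groups, and its fold changes had the sign of SA over SE in the counts for 12704 of 12716 genes.

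The main test of the counts was that of edgeR 4.0.16 under R 4.3.3 (filterByExpr with a minimum count of 10, TMM scaling, two-sided quasi-likelihood test, no covariates), which left 16909 genes. P-values were adjusted by Benjamini-Hochberg over all of them, with a threshold of 0.05. Alternatives were DESeq2 1.42.0, limma voom 3.58.1, another scaling, filters, covariates and omitted libraries. Exon lengths came from GENCODE M21. All 10 genes and the lists were chosen with earlier results of these data known. Genes named are all 10, per list the 3 tested genes with the smallest p, and per gene the 3 with the highest correlation at a mean of at least 1 CPM, besides some whose values are given as background or as examples chosen after they were seen. For every one of the 10 the tests compare the same 5 SA and 5 SE libraries. Some genes that this rule names are not reported here.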

Additional observations from a re-analysis of the deposited data

Results flagged for a closer look

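Ccl8 in SA library 1 stood at 25.3 CPM, far from the other 4 SA libraries by Dixon's test at the 95% level. The same test was made in 20 groups, 10 genes in SA and in SE, and chance marks about 1 in 20. Il4ra, Tslp, Ccl11, Ccl24, Retnla and Il13 were also lowest among SA libraries in SA 1, without passing this test.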

How the results depend on the processing

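Il13ra2, Il13ra1, Ccl8, Ccl24 and Ccl11 kept their sign in all 18 alternatives. Il13ra2 passed the threshold in DESeq2 alone (0.82, adjusted p = 0.00551), with edgeR or limma adjusted p between 0.0563 and 0.508 elsewhere. The number of genes called over the whole table was 341 in DESeq2, 41 without SE libraries 3, 4 and 5 and 7 to 225 when single libraries were left out. The cause of these changes was not tested. Signs turned for Tslp (-0.30) and Arg1 (0.30) without SE libraries 3, 4 and 5. With single libraries left out, Tslp lay between -0.01 and 0.29, Arg1 between -0.20 and 0.05, Retnla between -0.08 and 0.33 and Il4ra between -0.28 and 0.01. Replicate numbers showed no sign of pairing the libraries. Correlations of same-numbered libraries lay between -0.29 and 0.07, and 1 of 10 libraries correlated best with its own number. The labels do not say what the numbers mean, and a weak pairing could go unseen in these correlations. The replicate block called 10 genes and gave Il13ra2 0.80 (edgeR adjusted p = 0.508). The order of levels did not change with the longest transcript as length. Il13 was too low for any statement on its direction.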
